A study of Homo sapiens and Mus musculus with 19 samples.

Results

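Gene expression with the activated kinase IKKβ was compared with expression under the IkBα super-repressor in 5 human lung cancer lines. The members were chosen by the vector and species given in the labels, which takes 10 of the 19 arrays of the series, 5 with each vector, paired by cell line. The lines were A549, labelled a lung carcinoma, H358, labelled a bronchioalveolar carcinoma, and the lung adenocarcinomas H23, HCC827 and PC9. All are established lines, grown in RPMI with 10% fetal bovine serum. Every culture carried a retrovirus that also encodes green fluorescent protein, and cells were sorted on that fluorescence before total RNA was taken. The group called IKKb here carried IKKβ with serines 177 and 181 changed to glutamate. The group called IkB_SR carried the super-repressor mutant of IkBα. A group with the empty vector, MiG, had 5 further arrays, which entered the fit. Each line and vector had 1 array, so the lines are the replicates. A p-value sets a difference against how much the effects of the 3 vectors varied between lines, over all 15 arrays. In it the spread of each gene is drawn towards that of genes of like intensity. Values are Affymetrix MAS5 signals on a linear scale, and in the sentences below the 5 values of a group stand in the order A549, H23, H358, HCC827 and PC9.

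NF-kB proteins are dimers of RELA, RELB, REL and the products of NFKB1 and NFKB2, and in resting cells IkB proteins hold them in the cytoplasm. A kinase complex of IKKα, IKKβ and the scaffold NEMO phosphorylates IkBα, which is then degraded, and the released dimers enter the nucleus and bind kB motifs in DNA. A super-repressor IkBα cannot be phosphorylated at the sites the kinase uses and so stays bound. In lung epithelium the pathway is known for inducing chemokines, adhesion molecules and antigen presentation genes, together with its own inhibitors.

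The arrays were first checked for sample identity and quality. The epithelial markers EPCAM, KRT8, KRT18 and CDH1 lay above the 40th percentile of the array on all 10 arrays, and the summed signal of 7 epithelial markers ran from 41890 to 128100 with IkB_SR and from 45060 to 117100 with IKKb. The 9 leukocyte markers on the array summed to between 297.3 and 710.8 with IkB_SR and between 283.4 and 1262 with IKKb, with TYROBP and NKG7 below the 40th percentile on all 10 arrays, CD79A above it on all 10, and ITGAM and FCER1G above it on all IKKb arrays. Fibroblast and endothelial markers summed to between 991.1 and 3603 and between 1010 and 3204, with PDGFRB and VWF below that percentile and COL1A1 and PECAM1 above it on all 10 arrays. DCN was above it on all IkB_SR arrays. Alveolar and airway markers summed to between 359.9 and 3386 with IkB_SR and between 248.8 and 1653 with IKKb, with SFTPD and AQP5 below the percentile and SFTPB and NAPSA above it on all 10 arrays, and SFTPC above it on all IkB_SR arrays. The array labelled H358 IKKb stood apart from the other H358 arrays, with a Dap spike-in signal of 5908 against 1662 and 1598 and an actin 3′ to 5′ ratio of 1.739 against 1.411 and 1.378, so counts are given below without it too.

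Whether each array carried its labelled vector was examined from the transduced genes. The brighter NFKBIA probe set, which reads the IkBα transcript, gave 7343, 7292, 8963, 14580 and 7167 with IkB_SR, 4581, 9329, 2200, 2058 and 1185 with MiG, and 5306, 9950, 8602, 6877 and 1384 with IKKb. In the array labelled H23 IkB_SR it was the lowest of the 3 vectors, and results are therefore also given without H23. That array still had less RELB than the H23 MiG array, at 259 against 548. The dimmest of 3 IKBKB probe sets was higher with IKKb than with IkB_SR in all 5 lines, at 291.5, 138.2, 108.7, 115.6 and 79.91 against 245.9, 55.95, 81.05, 7.62 and 12.25. The brightest IKBKB probe set, which stands for the gene in the fit, did not follow the vector (log2 -0.20 ± 0.12, adjusted p = 0.485). Which probe sets lie within the transduced sequences was not given in the sources used here.

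Of 15212 genes tested with limma, 142 passed an adjusted p of 0.05, which is 0.933% of those tested. Fold changes and their log2 values are of signals plus 16, which understates the change of dim genes, and ± is the standard error of the fit. In RNA pooled from many sorted cells, fewer responding cells and less RNA per cell cannot be told apart. Of the 142, 93 were higher with IKKb (0.611%) and 49 were lower (0.322%). The higher genes had a median fold change of 1.83, and 40 of them were at least 2-fold and 14 at least 4-fold higher. The lower genes had a median fold change of 1.66, and 8 were at least 2-fold lower. The sign was the same in all 5 lines for 88 of the 93 and 48 of the 49, against 1558 of all genes tested (10.2%). The exceptions were IL7R, LTB, PTX3, COXFA4L3 and NT5E among the higher genes and LPAR1 among the lower. With each array centred on its median the split was 106 higher and 31 lower. The 10 arrays formed groups that did not overlap at all in 5 of the 142, RELB, IL32, NEURL3 and TRAF1 upward and RNF128 downward, against 11 of all genes (0.0723%). The genes were called from these same arrays, so the agreement in sign and the lack of overlap partly restate the call.

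**Figure D1:**
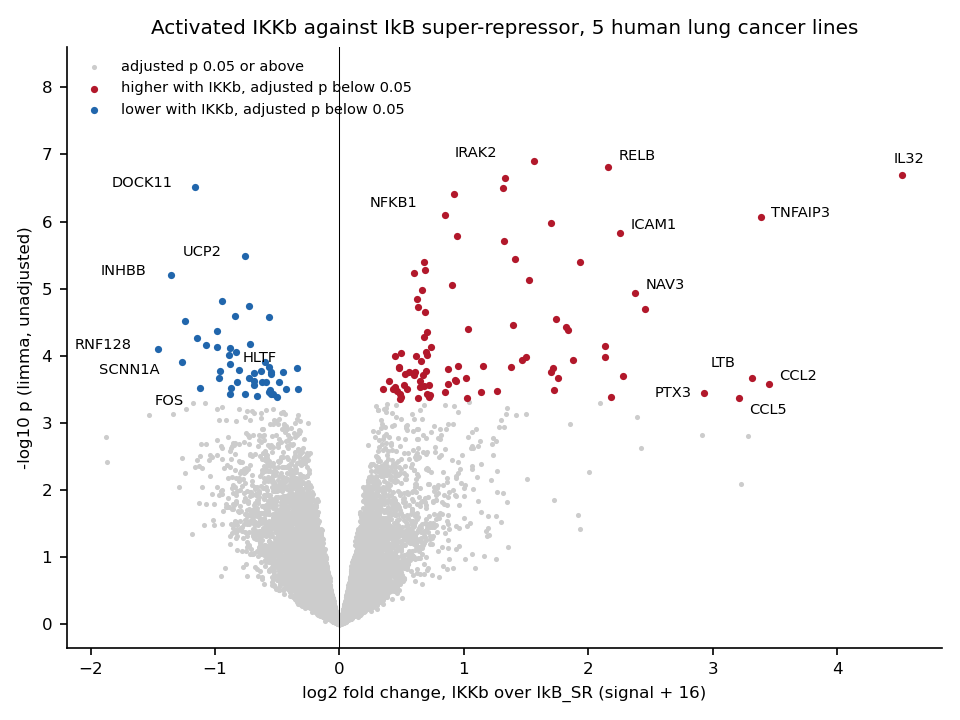
Log2 fold change of IKKb over IkB_SR (x axis) against the -log10 of the unadjusted limma p (y axis) for 15212 genes, with genes past an adjusted p of 0.05 coloured. The 93 higher genes reach a log2 of 4.52 at IL32, while the 49 lower genes go no further than -1.46 at RNF128.

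The number of genes called fell when any line was left out, which also left fewer arrays in the fit. Leaving out 1 line at a time gave 129 genes without A549, 67 without H23, 97 without H358, 31 without HCC827 and 24 without PC9, and leaving out only the H358 IKKb array gave 97. All 142 genes kept their sign in these 6 omissions, which reuse arrays that made the calls. The call itself held in all 6 for 17 of the 93 higher genes, IRAK2, RELB, IL32, LOC100996740, TNIP1, TAP2, NFKB1, TNFAIP3, NFKB2, ICAM1, TAPBP, OPTN, NFKBIE, ROBO1, NFE2L3, DRAM1 and C12orf75. Of the 49 lower genes it held in all 6 for DOCK11 and UCP2. In the limma fit of the compared arrays only, without MiG, 6 of these genes did not pass. They were NFKB1, ROBO1, NFE2L3, DRAM1, C12orf75 and UCP2 (adjusted p = 0.063, 0.119, 0.119, 0.119, 0.131 and 0.108). Of the 17, 7 stood in the lists of subunits, inhibitors, ubiquitin regulators and interleukin-1 receptor signalling, RELB, NFKB1, NFKB2, NFKBIE, TNIP1, TNFAIP3 and IRAK2. These lists held 5, 5, 16 and 22 of the 15212 genes tested. They were chosen with earlier results of these data known, so the count partly restates that choice.

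The promoters of the called genes were searched for the kB consensus motif, because the dimers released by IKKβ bind it. Promoter windows of 250 bases before to 50 bases after the start were taken from RefSeq (GRCh38.p14), and the first window listed was used for each gene. The motif was searched on both strands, so 1 palindromic site can match on both. It was present in 23 of 78 windows of the higher genes (29.5%), in 3 of 43 windows of the lower genes (6.98%), in 809 of 12134 windows of all genes tested (6.67%) and in 1562 of all 27305 windows (5.72%). These shares are descriptions, and a match is not evidence of binding. The stretches below show the motif in capitals within 25 bases on either side where the window allows, 5′ to 3′ on the gene's strand. The first set holds a receptor, a subunit and an inhibitor of the pathway and 6 of the secreted genes described further on.
NFKB1: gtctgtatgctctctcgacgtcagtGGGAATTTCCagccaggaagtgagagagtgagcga
TNFAIP3: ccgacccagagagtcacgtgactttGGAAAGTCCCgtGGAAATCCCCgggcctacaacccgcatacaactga
TNFRSF9: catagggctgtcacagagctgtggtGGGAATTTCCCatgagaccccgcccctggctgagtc
IL32: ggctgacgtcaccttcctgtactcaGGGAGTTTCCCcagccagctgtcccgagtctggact
LTB: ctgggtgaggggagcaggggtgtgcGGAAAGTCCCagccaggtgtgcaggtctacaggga
PTX3: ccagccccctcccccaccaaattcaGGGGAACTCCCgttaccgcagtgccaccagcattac
CXCL1: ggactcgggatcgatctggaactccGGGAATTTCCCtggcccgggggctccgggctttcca
CXCL2: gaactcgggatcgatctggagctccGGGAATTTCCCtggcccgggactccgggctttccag
CXCL3: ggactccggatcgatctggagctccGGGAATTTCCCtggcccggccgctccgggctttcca

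These stretches lie at chr4:102501285-102501344 (+ strand), chr6:137867167-137867238 (+ strand), chr1:7940878-7940938 (- strand), chr16:3065279-3065339 (+ strand), chr6:31582477-31582536 (- strand), chr3:157436728-157436788 (+ strand), chr4:73869289-73869349 (+ strand), chr4:74099238-74099298 (- strand) and chr4:74038733-74038793 (- strand). The sequence GGGAATTTCC stood in the windows of 6 of the 78 higher genes on either strand (7.69%), NFKB1, TNFRSF9, CXCL1, CXCL2, CXCL3 and OPTN, and in 24 of 12134 windows of all genes tested (0.198%). That sequence was singled out after the matches were seen. The windows of NFKB2, IKBKE, TNIP1, CYLD, TRAF1, BIRC2, IRAK2 and the secreted CFB did not hold the motif.

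The second set holds antigen presentation genes and the transcription factor IRF1, with 2 of the 3 matches among the lower genes, RNF128 and INHBB, for comparison.
TAPBP: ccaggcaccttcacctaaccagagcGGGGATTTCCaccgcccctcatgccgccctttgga
HLA-B: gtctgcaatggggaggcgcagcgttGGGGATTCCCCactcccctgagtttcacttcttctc
HLA-C: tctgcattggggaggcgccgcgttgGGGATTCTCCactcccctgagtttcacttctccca
IRF1: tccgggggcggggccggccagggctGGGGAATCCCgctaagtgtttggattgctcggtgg
RNF128: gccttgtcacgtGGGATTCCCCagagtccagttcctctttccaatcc
INHBB: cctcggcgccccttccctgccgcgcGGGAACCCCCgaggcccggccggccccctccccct

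They lie at chr6:33314100-33314159 (- strand), chr6:31357321-31357381 (- strand), chr6:31272230-31272289 (- strand), chr5:132490789-132490848 (- strand), chrX:106693588-106693634 (+ strand) and chr2:120345961-120346020 (+ strand). The match in HLA-B began 177 bases and that in HLA-C 172 bases before the start, and the matches in TAPBP, IRF1 and NFKB1 began 56, 50 and 49 bases before it.

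Within the pathway, genes of the NF-kB subunits were higher with IKKb. Of 5 subunit genes tested, 3 were higher with IKKb and none was lower, with a list median log2 of 0.85 against -0.01 for all genes. RELB, the subunit that pairs with the NFKB2 product p52, had signals of 65.7, 259, 64.7, 110 and 101 with IkB_SR and 395, 847, 419, 712 and 408 with IKKb. Every IKKb array was above every IkB_SR array, and the fold change was 4.47 (log2 2.16 ± 0.23, adjusted p = 0.00079). NFKB2, the precursor of p52, had signals of 217, 460, 85.3, 76.9 and 96.9 with IkB_SR and 721, 1542, 196, 447 and 362 with IKKb. It was higher with IKKb within each line although the groups overlapped, since H23 had more NFKB2 with either vector than the other lines (3.25-fold, log2 1.70 ± 0.21, adjusted p = 0.0016). NFKB1, the precursor of p50, gave 816, 521, 976, 706 and 502 with IkB_SR and 1242, 1198, 1579, 1567 and 800 with IKKb, a 1.8-fold difference that was upward in all 5 lines (log2 0.85 ± 0.10, adjusted p = 0.00143). RELA, the main transactivating subunit, and REL did not pass. RELA gave 1516, 1115, 1970, 1701 and 1617 with IkB_SR and 2360, 1160, 2434, 2016 and 2000 with IKKb (log2 0.31 ± 0.09, adjusted p = 0.151), and REL a log2 of 0.09 ± 0.11 with an adjusted p of 0.76.

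Among the inhibitors, NFKBIE, which encodes IkBε, was the only 1 of 5 tested IkB genes past the threshold. It gave 118, 316, 363, 336 and 241 with IkB_SR and 283, 667, 1066, 1537 and 578 with IKKb, a 2.66-fold difference with the rise present in every line (log2 1.41 ± 0.19, adjusted p = 0.00364). NFKBIB had a log2 of 0.43 ± 0.16, NFKBIZ of 0.26 ± 0.23 and NFKBID of 0.00 ± 0.22, with adjusted p of 0.234, 0.667 and 0.999. NFKBIA, also the gene of the transduced super-repressor, had a log2 of -0.70 ± 0.39 (adjusted p = 0.438). Of 12 genes of the kinase complex and its upstream kinases, 1 passed. IKBKE, a kinase related to IKKβ, gave 224, 143, 194, 152 and 158 with IkB_SR and 397, 158, 526, 671 and 291 with IKKb and was 2.04-fold higher (log2 1.03 ± 0.22, adjusted p = 0.0458), with almost no difference in H23. CHUK, the gene of IKKα, IKBKG, the gene of NEMO, and MAP3K14, the kinase of the non-canonical pathway, did not pass, at log2 of 0.06 ± 0.08, 0.18 ± 0.10 and -0.54 ± 0.20. Without the H358 IKKb array IKBKE did not pass and MAP3K14 did, as lower (log2 -0.77, adjusted p = 0.0385, and log2 -0.81, adjusted p = 0.0318 without H358). Over the 6 omissions RELB, NFKB1, NFKB2 and NFKBIE had adjusted p of at most 0.0122, 0.0233, 0.0234 and 0.03. NFKB1 did not pass in the limma fit of the compared arrays only (adjusted p = 0.063). IKBKE passed in 1 of the 6 omissions (adjusted p = 0.0388 to 0.2, not without A549, H358, HCC827, PC9 or the H358 IKKb array).

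**Figure D2:**
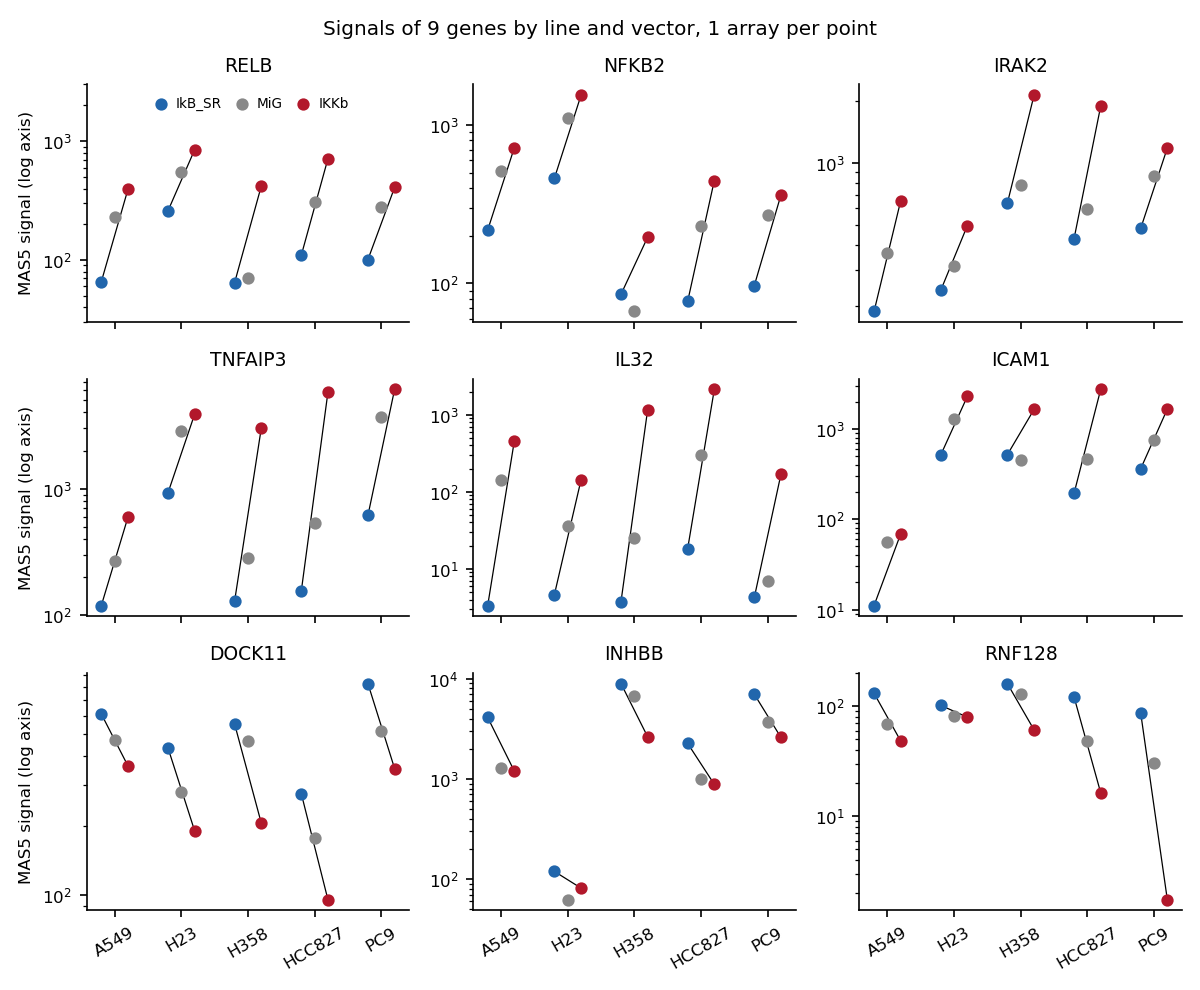
MAS5 signal on a log axis (y axis) of 9 genes in each cell line (x axis), 1 array per point, with a line joining the IkB_SR and IKKb arrays of a cell line. RELB rises from between 64.7 and 259 with IkB_SR to between 395 and 847 with IKKb, and DOCK11, INHBB and RNF128 run the other way in all 5 lines.

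Ubiquitin enzymes and adaptors that act above the kinase moved in the same direction where they passed. Of 16 tested, 6 were higher and none lower, with a median log2 of 0.20. TNFAIP3, the deubiquitinase A20 that shuts the kinase off, gave 120, 927, 130, 155 and 615 with IkB_SR and 597, 3872, 3007, 5782 and 6075 with IKKb and was 10.5-fold higher (log2 3.39 ± 0.41, adjusted p = 0.00143). The H358 and HCC827 arrays, lowest with IkB_SR apart from A549, rose most, by log2 4.37 and 5.08. TNIP1, which binds A20, gave 1568, 736, 1881, 2045 and 2152 with IkB_SR and 2580, 1691, 5437, 7498 and 5277 with IKKb, a 2.49-fold rise that was smallest in A549 (log2 1.31 ± 0.15, adjusted p = 0.00079). CYLD, another deubiquitinase of the pathway, gave 308, 81.3, 172, 348 and 182 with IkB_SR and 398, 317, 921, 731 and 536 with IKKb and was 2.63-fold higher (log2 1.39 ± 0.23, adjusted p = 0.0152), with the smallest difference in A549. TRAF1, an adaptor of tumour necrosis factor receptors, gave 99.9, 62.5, 84.6, 18.2 and 55.6 with IkB_SR and 108, 202, 700, 239 and 148 with IKKb. The lowest IKKb value, in A549, was above the highest IkB_SR value, which was also in A549, and the fold was 3.25 (log2 1.70 ± 0.34, adjusted p = 0.0328). TRAF3, which restrains the non-canonical kinase, was 2.05-fold higher (log2 1.03 ± 0.18, adjusted p = 0.0163) and BIRC2, the ubiquitin ligase cIAP1, 1.58-fold higher (log2 0.66 ± 0.10, adjusted p = 0.00682). Their signals with IkB_SR ran from 530 to 1764 and from 3086 to 6000, and with IKKb from 1287 to 2570 and from 4081 to 9617. OPTN, a ubiquitin-binding autophagy receptor, gave 766, 983, 672, 988 and 167 with IkB_SR and 1813, 2056, 1268, 2273 and 848 with IKKb, and it was higher in each line and most in PC9 (2.5-fold, log2 1.32 ± 0.17, adjusted p = 0.00226).

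Among upstream receptors few genes passed. Of 22 genes that signal from interleukin-1 and Toll-like receptors, 1 passed (median log2 0.04), and of 20 tumour necrosis factor receptors 1 passed (median 0.15). IRAK2, a kinase of the interleukin-1 receptor complex, had the smallest p of all genes tested. Its signals were 189, 239, 636, 426 and 479 with IkB_SR and 655, 495, 2138, 1891 and 1183 with IKKb, a 2.96-fold rise with differences from 1.0 in H23 to 2.11 in HCC827 on the log2 scale (log2 1.56 ± 0.16, adjusted p = 0.00079). TLR2 and MYD88 had log2 of 1.28 and 0.31 with adjusted p of 0.0803 and 0.0869, and TLR2 passed without A549 (log2 1.55, adjusted p = 0.0189). TNFRSF9, the receptor CD137, gave 52, 4.08, 39.9, 21.1 and 16.1 with IkB_SR and 156, 27.8, 457, 155 and 66.7 with IKKb and was 3.54-fold higher (log2 1.82 ± 0.31, adjusted p = 0.0157), and 3 of its IkB_SR signals were under the 40th percentile of their arrays. TNFRSF1A and FAS gave log2 of 0.02 and 0.69 with adjusted p of 0.954 and 0.149. TNFRSF9 passed in 3 of the 6 omissions (adjusted p = 0.0162 to 0.0833, not without H358, HCC827 or PC9), TRAF1 in 1 of the 6 omissions (adjusted p = 0.0125 to 0.175, not without H23, H358, HCC827, PC9 or the H358 IKKb array), CYLD in 3 of the 6 omissions (adjusted p = 0.0114 to 0.0895, not without H23, HCC827 or PC9), and TRAF3 in 4 of the 6 omissions (adjusted p = 0.00361 to 0.085, not without HCC827 or PC9). BIRC2 passed in 4 of the 6 omissions (adjusted p = 0.00434 to 0.0651, not without HCC827 or PC9).

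Secreted proteins were among the genes with the largest differences. IL32, a cytokine of lymphoid and epithelial cells, gave 3.34, 4.6, 3.76, 18.2 and 4.25 with IkB_SR and 459, 142, 1162, 2132 and 169 with IKKb. All IkB_SR signals were under the 40th percentile of their arrays and all IKKb signals above it, so the difference was at least 9.67-fold (adjusted p = 0.00079). Of 13 cytokines tested it was the only 1 past the threshold, while IL6 had a log2 of 2.09 and EBI3 of 1.85 with adjusted p of 0.0532 and 0.0763. IL6 passed without the H358 IKKb array (log2 2.33, adjusted p = 0.0488). Of 11 CXC and CX3C chemokines 3 passed, with a list median log2 of 1.18, and of 5 CC chemokines 2 passed, with a median of 3.21. CXCL1, CXCL2 and CXCL3, which attract neutrophils, share a position on chromosome 4 and the kB sequence printed above. CXCL1 gave 1438, 1519, 216, 4.46 and 43.2 with IkB_SR and 1993, 1806, 1668, 627 and 288 with IKKb, and its rise was small in A549 and H23, where the level was already high with IkB_SR (4.54-fold, log2 2.18 ± 0.47, adjusted p = 0.0451). CXCL2 gave 1616, 1110, 242, 161 and 33.1 with IkB_SR and 2148, 2314, 2448, 2475 and 205 with IKKb (4.4-fold, log2 2.14 ± 0.39, adjusted p = 0.0239), and CXCL3 gave 468, 76.4, 106, 25.2 and 20.9 with IkB_SR and 926, 111, 714, 379 and 80.1 with IKKb (3.31-fold, log2 1.73 ± 0.37, adjusted p = 0.0408). In each of the 3 genes HCC827 and H358 had the largest log2 differences.

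The attractants of monocytes and T cells were less even. CCL2 gave 417, 1246, 1.35, 123 and 2.37 with IkB_SR and 1494, 11130, 1015, 11090 and 3.73 with IKKb, near the bottom of the array with both vectors in PC9 and rising from such a level in H358 (10.9-fold, log2 3.45 ± 0.71, adjusted p = 0.0383). CCL5 gave 17.9, 111, 23.1, 33.2 and 4.58 with IkB_SR and 38.5, 3247, 2620, 144 and 139 with IKKb, with the largest rises in H23 and H358 (9.26-fold, log2 3.21 ± 0.70, adjusted p = 0.0458). LTB, the membrane partner of lymphotoxin, gave 7.9, 77.2, 58.8, 44.4 and 23.9 with IkB_SR and 74.6, 72.2, 2572, 3506 and 531 with IKKb, with no rise in H23 (9.98-fold, log2 3.32 ± 0.67, adjusted p = 0.0351). Among 10 complement and acute phase genes 3 were higher and none lower, with a median log2 of 0.65. C3, the central complement component, gave 762, 89.3, 64.8, 151 and 926 with IkB_SR and 1993, 147, 430, 4327 and 2684 with IKKb (4.4-fold, log2 2.14 ± 0.40, adjusted p = 0.0277), and CFB, a protease of the alternative pathway, 59.2, 4.77, 75.8, 162 and 18.7 with IkB_SR and 126, 13.7, 186, 1785 and 239 with IKKb (3.38-fold, log2 1.76 ± 0.36, adjusted p = 0.0351). PTX3, a pentraxin of innate immunity, gave 18.1, 1967, 47, 31 and 705 with IkB_SR and 12.5, 6641, 1998, 2109 and 4608 with IKKb and was lower in A549 but higher in the other 4 lines (7.64-fold, log2 2.93 ± 0.63, adjusted p = 0.0429). Each of these calls was lost in some of the omissions, which also leave fewer arrays in the fit. CXCL1 passed in 2 of the 6 omissions (adjusted p = 0.0415 to 0.191, not without H358, HCC827, PC9 or the H358 IKKb array), and CXCL2 in 3 of the 6 omissions (adjusted p = 0.0137 to 0.111, not without H358, HCC827 or PC9). CXCL3 passed in 1 of the 6 omissions (adjusted p = 0.049 to 0.198, not without A549, H358, HCC827, PC9 or the H358 IKKb array), and CCL2 in 1 of the 6 omissions (adjusted p = 0.0286 to 0.192, not without A549, H23, H358, HCC827 or the H358 IKKb array). CCL5 passed in 2 of the 6 omissions (adjusted p = 0.0361 to 0.187, not without H23, HCC827, PC9 or the H358 IKKb array). LTB passed in 2 of the 6 omissions (adjusted p = 0.0162 to 0.178, not without H358, HCC827, PC9 or the H358 IKKb array), C3 in 2 of the 6 omissions (adjusted p = 0.0264 to 0.0932, not without A549, H358, PC9 or the H358 IKKb array), and CFB in 2 of the 6 omissions (adjusted p = 0.0264 to 0.185, not without A549, H358, HCC827 or PC9). PTX3 passed in 1 of the 6 omissions (adjusted p = 0.0137 to 0.19, not without H23, H358, HCC827, PC9 or the H358 IKKb array).

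At the cell surface, ICAM1, the adhesion molecule that binds leukocyte integrins, gave 11.1, 515, 520, 194 and 363 with IkB_SR and 69, 2304, 1649, 2747 and 1666 with IKKb and was 4.78-fold higher in a comparison that held in all 6 omissions (log2 2.26 ± 0.28, adjusted p = 0.00207). A549 had the least ICAM1 with either vector. CD47, a signal that inhibits phagocytosis, gave 3623, 2682, 6032, 7402 and 7934 with IkB_SR and 4348, 4220, 12190, 14890 and 11150 with IKKb (1.61-fold, log2 0.68 ± 0.11, adjusted p = 0.0113), and ICAM1 and CD47 were the 2 genes of 21 on the adhesion and immune surface list to pass. Of 21 cytokine receptors 3 were higher, IL7R, IL6ST and IFNGR1. IL6ST, the shared receptor subunit gp130, gave 5248, 11260, 3010, 7198 and 6027 with IkB_SR and 7227, 12390, 7389, 12440 and 11960 with IKKb (1.66-fold, log2 0.73 ± 0.13, adjusted p = 0.0242). IFNGR1, the ligand-binding chain of the interferon gamma receptor, gave 2459, 1713, 2067, 1909 and 2220 with IkB_SR and 3708, 2736, 2179, 3140 and 4617 with IKKb (1.54-fold, log2 0.62 ± 0.12, adjusted p = 0.0277), with almost no difference in H358. IL7R, the interleukin-7 receptor chain, gave 14.2, 61.5, 1144, 199 and 4.86 with IkB_SR and 89.3, 309, 1112, 1036 and 32.7 with IKKb (2.77-fold, log2 1.47 ± 0.28, adjusted p = 0.0293) and did not rise in H358, where it was brightest with IkB_SR. ITGAM, a leukocyte integrin chain, gave 41.8, 172, 28.6, 11.9 and 30.9 with IkB_SR and 166, 654, 60.1, 42.5 and 438 with IKKb (3.3-fold, log2 1.72 ± 0.34, adjusted p = 0.0327), with 3 IkB_SR signals below the 40th percentile. The leukocyte markers PTPRC, TYROBP and NKG7 lay below that percentile on all IkB_SR arrays, and LYZ, TYROBP and NKG7 on all IKKb arrays. CD47 passed in 4 of the 6 omissions (adjusted p = 0.0105 to 0.0735, not without HCC827 or PC9), IL6ST in 4 of the 6 omissions (adjusted p = 0.0162 to 0.143, not without HCC827 or PC9), IFNGR1 in 2 of the 6 omissions (adjusted p = 0.0044 to 0.143, not without A549, H23, HCC827 or PC9), and IL7R in 2 of the 6 omissions (adjusted p = 0.00178 to 0.154, not without A549, H23, HCC827 or PC9). ITGAM passed in 2 of the 6 omissions (adjusted p = 0.0135 to 0.122, not without A549, H23, HCC827 or PC9).

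Genes of MHC class I antigen presentation were higher with IKKb in several steps, from peptide production to the class I molecules. Of 14 peptide loading and immunoproteasome genes 6 were higher and none lower. All 14 had a log2 above 0, with a median of 0.64, against 46.9% of all genes tested above 0. PSMB9, a catalytic subunit of the immunoproteasome, gave 314, 829, 2708, 736 and 90 with IkB_SR and 868, 4379, 2750, 4323 and 533 with IKKb (3.35-fold, log2 1.74 ± 0.29, adjusted p = 0.0132), and was level in H358, where it was brightest with IkB_SR. TAP1 and TAP2 form the peptide transporter. TAP1 gave 602, 1021, 1025, 597 and 191 with IkB_SR and 740, 5134, 2368, 3932 and 398 with IKKb (2.82-fold, log2 1.5 ± 0.28, adjusted p = 0.0277), and TAP2 gave 312, 669, 754, 1372 and 589 with IkB_SR and 450, 1607, 1357, 3166 and 1060 with IKKb, a 1.89-fold rise with log2 differences of 0.50 to 1.24 (log2 0.92 ± 0.10, adjusted p = 0.000834). TAPBP, the tapasin that bridges transporter and class I molecule, gave 1356, 1525, 3570, 3880 and 780 with IkB_SR and 2264, 3546, 6623, 6281 and 1807 with IKKb and was 1.92-fold higher (log2 0.94 ± 0.12, adjusted p = 0.00211). The trimming peptidases ERAP1 and ERAP2 were 1.59-fold and 1.91-fold higher (log2 0.67 ± 0.13, adjusted p = 0.0337, and log2 0.93 ± 0.19, adjusted p = 0.0369). Of 6 class I and B2M genes 2 passed, HLA-B and HLA-C, and all 6 had a log2 above 0, with a median of 0.46. HLA-B gave 1521, 5551, 11820, 12910 and 2094 with IkB_SR and 2121, 7359, 17510, 18980 and 4220 with IKKb (1.52-fold, log2 0.60 ± 0.12, adjusted p = 0.0337), and HLA-C gave 3148, 6705, 12170, 12690 and 2105 with IkB_SR and 3904, 8690, 17600, 18110 and 3322 with IKKb (1.39-fold, log2 0.48 ± 0.09, adjusted p = 0.0327). The near identity of class I genes means that probe sets of HLA-B and HLA-C can share signal. PSMB8, another immunoproteasome subunit, had a log2 of 1.04 and an adjusted p of 0.0518, and passed without the H358 IKKb array (adjusted p = 0.0208). None of 8 MHC class II genes passed, with a median log2 of 0.25. TAP2 and TAPBP held in all 6 omissions, while PSMB9 passed in 3 of the 6 omissions (adjusted p = 0.000187 to 0.0884, not without H23, HCC827 or PC9), TAP1 in 3 of the 6 omissions (adjusted p = 0.0167 to 0.134, not without H23, HCC827 or PC9), ERAP1 in 2 of the 6 omissions (adjusted p = 0.0171 to 0.178, not without A549, H23, HCC827 or PC9), ERAP2 in 3 of the 6 omissions (adjusted p = 0.0295 to 0.187, not without H23, HCC827 or PC9), and HLA-B in 1 of the 6 omissions (adjusted p = 0.0415 to 0.185, not without A549, H23, HCC827, PC9 or the H358 IKKb array). HLA-C passed in 1 of the 6 omissions (adjusted p = 0.0323 to 0.175, not without A549, H23, HCC827, PC9 or the H358 IKKb array).

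Several of these genes are neighbours. In the order of genes on chromosome 6 in GRCh38.p14, the stretch from HLA-F to KIFC1 held 116 tested genes. Of these, none was lower and 8 were higher (6.9%), against 0.611% of all genes tested. They were TAP2, TAPBP, PSMB9, TAP1, HLA-C, HLA-B, CFB and LTB. The median log2 of all 116 was 0.06, against -0.01 for all genes. The stretch was picked with results of these data known and spans genes described above, so its share partly restates those calls.

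Interferon-related genes varied by line. Of 28 tested 2 were higher, IRF1, a transcription factor, and GBP1, a guanylate-binding GTPase, and none was lower. IRF1 gave 326, 329, 1522, 631 and 267 with IkB_SR and 381, 582, 2009, 1454 and 517 with IKKb (1.63-fold, log2 0.70 ± 0.13, adjusted p = 0.0277), and GBP1 gave 44.8, 0.76, 1295, 808 and 79.5 with IkB_SR and 96.9, 24.7, 1447, 4311 and 410 with IKKb (2.6-fold, log2 1.38 ± 0.27, adjusted p = 0.0327). The list median of log2 differences was 2.68 in HCC827 and lay between -0.31 and 0.29 in the other 4 lines. IFIH1, an RNA sensor, and MX1 had log2 of 1.5 and 1.01 over the lines with adjusted p of 0.0626 and 0.466. Without the H358 IKKb array IFIH1 and IFIT2 passed as well (log2 1.82, adjusted p = 0.0182, and log2 1.21, adjusted p = 0.0171). IRF1 passed in 3 of the 6 omissions (adjusted p = 0.0182 to 0.154, not without H23, HCC827 or PC9). GBP1 passed in 3 of the 6 omissions (adjusted p = 0.0111 to 0.163, not without H23, HCC827 or PC9).

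The remaining higher genes came from several functions, and those without a place in the lists were picked out after their values were seen or by their rank. NFE2L3, a basic leucine zipper transcription factor, gave 88.2, 753, 63.5, 553 and 5287 with IkB_SR and 293, 2780, 809, 2921 and 7503 with IKKb and was 3.83-fold higher (log2 1.94 ± 0.27, adjusted p = 0.00364), least in PC9, which had the most of it. ETS1, an ETS family transcription factor, gave 742, 813, 5241, 1917 and 1223 with IkB_SR and 1312, 5690, 10390, 4599 and 4225 with IKKb (2.87-fold, log2 1.52 ± 0.22, adjusted p = 0.00536). NAV3, a microtubule-binding protein, gave 584, 4.29, 80.5, 113 and 5.61 with IkB_SR and 779, 172, 1271, 575 and 92.7 with IKKb (5.19-fold, log2 2.38 ± 0.36, adjusted p = 0.00735), and 2 of its IkB_SR signals were below the 40th percentile. COL6A2, a collagen VI chain, gave 6.86, 306, 23.1, 7.35 and 310 with IkB_SR and 69.4, 308, 775, 96.5 and 2372 with IKKb, level in H23 and higher in the other 4 lines (4.85-fold, log2 2.28 ± 0.46, adjusted p = 0.0343). COXFA4L3, a mitochondrial protein, gave 248, 15610, 909, 1261 and 567 with IkB_SR and 1236, 15360, 13140, 13540 and 4113 with IKKb (5.49-fold, log2 2.46 ± 0.39, adjusted p = 0.0107), with H23 near the top of the range under both vectors. NEURL3, a ubiquitin ligase, gave 15.2, 70.2, 42, 50.5 and 62 with IkB_SR and 73.2, 104, 452, 292 and 339 with IKKb, with no overlap between vectors (3.68-fold, log2 1.88 ± 0.36, adjusted p = 0.0293). SLC2A6, of the glucose transporter family, gave 450, 371, 73.3, 112 and 4.71 with IkB_SR and 779, 927, 763, 215 and 170 with IKKb (3.58-fold, log2 1.84 ± 0.31, adjusted p = 0.0165). The uncharacterised locus LOC100996740 was 2.52-fold higher (log2 1.33 ± 0.14, adjusted p = 0.00079).

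Smaller rises were seen in ROBO1, the receptor of Slit guidance cues (1.6-fold, log2 0.68 ± 0.09, adjusted p = 0.00364), DRAM1, a lysosomal membrane protein tied to autophagy (1.61-fold, log2 0.68 ± 0.10, adjusted p = 0.00441), and C12orf75 (1.51-fold, log2 0.60 ± 0.08, adjusted p = 0.0047). C12orf75 spanned a wide range of levels, with 6852, 3752, 63.1, 1359 and 267 with IkB_SR and 10200, 5324, 136, 1936 and 374 with IKKb, yet rose by between log2 0.46 and 0.94 in each line. ITGA5 and ITGAV, integrin chains of the fibronectin and vitronectin receptors, were 1.62-fold and 1.54-fold higher (log2 0.69 ± 0.14, adjusted p = 0.0328, and log2 0.62 ± 0.10, adjusted p = 0.00881). MLKL, the effector of necroptosis, was 1.6-fold higher (log2 0.68 ± 0.12, adjusted p = 0.0192), FOSL1, an AP-1 subunit, 1.57-fold (log2 0.65 ± 0.13, adjusted p = 0.0369) and GCH1, the first enzyme of tetrahydrobiopterin synthesis, 1.44-fold (log2 0.52 ± 0.11, adjusted p = 0.0389). NAV3 passed in 4 of the 6 omissions (adjusted p = 0.00321 to 0.0532, not without HCC827 or PC9), COL6A2 in 1 of the 6 omissions (adjusted p = 0.0162 to 0.158, not without A549, H358, HCC827, PC9 or the H358 IKKb array), COXFA4L3 in 4 of the 6 omissions (adjusted p = 0.00075 to 0.083, not without HCC827 or PC9), and NEURL3 in 2 of the 6 omissions (adjusted p = 0.0162 to 0.136, not without A549, H358, HCC827 or PC9). SLC2A6 passed in 5 of the 6 omissions (adjusted p = 0.0192 to 0.0895, not without PC9). FOSL1 passed in 1 of the 6 omissions (adjusted p = 0.0137 to 0.176, not without H23, H358, HCC827, PC9 or the H358 IKKb array) and GCH1 in none of the 6 (adjusted p = 0.057 to 0.153). ETS1 passed in 5 of the 6 omissions (adjusted p = 0.00739 to 0.0532, not without PC9). ITGAV passed in 4 of the 6 omissions (adjusted p = 0.0133 to 0.0641, not without H23 or PC9), ITGA5 in 1 of the 6 omissions (adjusted p = 0.0167 to 0.176, not without H23, H358, HCC827, PC9 or the H358 IKKb array), and MLKL in 3 of the 6 omissions (adjusted p = 0.0147 to 0.102, not without H23, HCC827 or PC9).

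Genes lower with IKKb came from many functions, and none of them was 4-fold lower. Of the 49, 5 belonged to any of the lists, against 42 of the 93 higher genes. The lists were chosen with earlier results of these data known, so these counts partly restate that choice. The share of all genes tested that belongs to a list was not counted, so the counts say nothing about function. RNF128, a ubiquitin ligase also called GRAIL, gave 131, 102, 160, 121 and 86.9 with IkB_SR and 48.2, 79.4, 61, 16.4 and 1.75 with IKKb. Every IKKb value was below every IkB_SR value, although 2 IKKb signals were under the 40th percentile of their arrays and the H23 difference was small (log2 -1.46 ± 0.27, adjusted p = 0.0249). DOCK11, an activator of the GTPase CDC42, gave 611, 435, 552, 276 and 828 with IkB_SR and 363, 190, 205, 95.5 and 354 with IKKb and was 2.23-fold lower, by similar amounts in the lines and in all 6 omissions (log2 -1.16 ± 0.13, adjusted p = 0.00079). PALMD and PALM, related membrane-associated proteins, gave 195, 334, 76.4, 646 and 168 with IkB_SR and 107, 175, 14.8, 329 and 29.4 with IKKb and 240, 428, 141, 195 and 41 with IkB_SR and 185, 234, 59.3, 56.2 and 12 with IKKb. Both were lower in each line, 2.36-fold and 1.95-fold (log2 -1.24 ± 0.21, adjusted p = 0.0136, and log2 -0.96 ± 0.19, adjusted p = 0.0328). RNF128 passed in 2 of the 6 omissions (adjusted p = 0.0162 to 0.136, not without A549, H358, HCC827 or PC9). PALM passed in 1 of the 6 omissions (adjusted p = 0.0248 to 0.173, not without H23, H358, HCC827, PC9 or the H358 IKKb array), and PALMD in 5 of the 6 omissions (adjusted p = 0.0247 to 0.0693, not without HCC827).

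Of 26 activin, TGF-beta and BMP genes 3 were lower and none higher, with a median log2 of 0.00. INHBB, the activin βB chain, gave 4105, 120, 8932, 2261 and 6993 with IkB_SR and 1195, 81.6, 2631, 883 and 2592 with IKKb and was 2.55-fold lower (log2 -1.35 ± 0.19, adjusted p = 0.00474), with little signal and the smallest difference in H23. LTBP3, which tethers latent TGF-beta to the matrix, gave 1717, 550, 4459, 805 and 1090 with IkB_SR and 1325, 424, 2463, 468 and 772 with IKKb (1.48-fold lower, log2 -0.57 ± 0.09, adjusted p = 0.0125), and 1 of its 3 probe sets ran the other way. ID1, an early target of BMP signalling, gave 10520, 6656, 8276, 11080 and 2201 with IkB_SR and 8738, 6303, 4645, 7258 and 1326 with IKKb (1.42-fold lower, log2 -0.50 ± 0.11, adjusted p = 0.0451). INHBA, the activin βA chain, had a log2 of 2.01 and BMP2 of 0.96, with adjusted p of 0.154 and 0.0619. INHBB passed in 5 of the 6 omissions (adjusted p = 0.0044 to 0.0532, not without PC9), and LTBP3 in 4 of the 6 omissions (adjusted p = 0.023 to 0.0849, not without HCC827 or PC9). ID1 passed in 1 of the 6 omissions (adjusted p = 0.045 to 0.228, not without A549, H358, HCC827, PC9 or the H358 IKKb array).

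Mitochondrial and metabolic enzymes appeared among the lower genes, a grouping made after their values were seen. UCP2, a carrier of the inner mitochondrial membrane, gave 2641, 2836, 4778, 2193 and 438 with IkB_SR and 2184, 1736, 2607, 1075 and 221 with IKKb and was 1.69-fold lower in a comparison that held in all 6 omissions (log2 -0.76 ± 0.10, adjusted p = 0.00351). UCP2 did not pass in the limma fit of the compared arrays only (adjusted p = 0.108). IDH2 and IDH1, the mitochondrial and cytosolic NADP-dependent isocitrate dehydrogenases, gave 1046, 1065, 2334, 2241 and 2099 with IkB_SR and 876, 785, 965, 1286 and 1109 with IKKb, and 8432, 4803, 6221, 2540 and 4215 with IkB_SR and 7885, 2907, 4099, 2080 and 1945 with IKKb. Both were lower in each line, 1.66-fold and 1.48-fold (log2 -0.73 ± 0.12, adjusted p = 0.0101, and log2 -0.56 ± 0.12, adjusted p = 0.0422). PDK3, a kinase that inhibits pyruvate dehydrogenase, gave 781, 756, 1931, 313 and 650 with IkB_SR and 598, 538, 1247, 132 and 331 with IKKb (1.64-fold lower, log2 -0.72 ± 0.13, adjusted p = 0.0235). IDH2 passed in 4 of the 6 omissions (adjusted p = 0.00961 to 0.0884, not without HCC827 or PC9), and IDH1 in 1 of the 6 omissions (adjusted p = 0.0289 to 0.188, not without H23, H358, HCC827, PC9 or the H358 IKKb array). PDK3 passed in 3 of the 6 omissions (adjusted p = 0.0203 to 0.12, not without H23, HCC827 or PC9).

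Some membrane transporters and receptors were among the lower genes and others among the higher ones, and of 13 ion channels and transporters on a list 1 was higher and 1 lower (median log2 -0.05). SCNN1A, the alpha chain of the epithelial sodium channel, gave 275, 42.4, 5134, 927 and 2049 with IkB_SR and 182, 12.8, 942, 481 and 774 with IKKb (2.4-fold lower, log2 -1.26 ± 0.24, adjusted p = 0.0298), with the largest difference in H358. SLC40A1, the iron exporter ferroportin, gave 2237, 212, 1839, 274 and 476 with IkB_SR and 1933, 155, 580, 85.8 and 146 with IKKb (2.11-fold lower, log2 -1.08 ± 0.19, adjusted p = 0.0236), with small differences in A549 and H23. NOTCH3, a Notch receptor, gave 337, 899, 543, 401 and 1192 with IkB_SR and 139, 796, 174, 136 and 804 with IKKb (1.98-fold lower, log2 -0.98 ± 0.18, adjusted p = 0.0243), while JAG1, a Notch ligand, was 1.44-fold higher (log2 0.53 ± 0.11, adjusted p = 0.0331), with 4297, 2396, 12370, 4607 and 2338 with IkB_SR and 6120, 4374, 15600, 4824 and 4288 with IKKb. PTPRS, a receptor tyrosine phosphatase, gave 348, 1028, 852, 1169 and 717 with IkB_SR and 187, 714, 432, 341 and 436 with IKKb (1.93-fold lower, log2 -0.95 ± 0.15, adjusted p = 0.00907). The cell-surface proteoglycans GPC1 and GPC4 were 1.37-fold and 1.77-fold lower (log2 -0.46 ± 0.09, adjusted p = 0.0328, and log2 -0.82 ± 0.17, adjusted p = 0.0369). SCNN1A passed in 3 of the 6 omissions (adjusted p = 0.00933 to 0.155, not without H23, HCC827 or PC9), and SLC40A1 in 3 of the 6 omissions (adjusted p = 0.0139 to 0.134, not without H358, HCC827 or PC9). NOTCH3 passed in 2 of the 6 omissions (adjusted p = 0.0162 to 0.134, not without A549, H358, HCC827 or PC9). PTPRS passed in 5 of the 6 omissions (adjusted p = 0.0147 to 0.0503, not without PC9), and JAG1 in 3 of the 6 omissions (adjusted p = 0.0338 to 0.185, not without A549, H23 or PC9). GPC4 passed in 1 of the 6 omissions (adjusted p = 0.034 to 0.154, not without A549, H23, H358, HCC827 or PC9), and GPC1 in 2 of the 6 omissions (adjusted p = 0.0316 to 0.178, not without A549, H23, HCC827 or PC9).

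Nuclear factors among the lower genes included FOS, an AP-1 subunit, with 873, 2892, 1375, 974 and 801 with IkB_SR and 867, 1652, 444, 239 and 333 with IKKb (2.17-fold lower, log2 -1.12 ± 0.24, adjusted p = 0.0402), level in A549. DBP, a circadian transcription factor, gave 219, 408, 1393, 407 and 472 with IkB_SR and 150, 260, 334, 171 and 319 with IKKb (1.96-fold lower, log2 -0.97 ± 0.20, adjusted p = 0.0351). RXRA, a retinoid nuclear receptor, was 1.4-fold lower (log2 -0.48 ± 0.10, adjusted p = 0.0369). TRIM2, a ubiquitin ligase, MACROD1, an ADP-ribosylhydrolase, and CRACDL were 1.79-fold, 2.21-fold and 1.98-fold lower (log2 -0.84 ± 0.14, adjusted p = 0.0125, log2 -1.14 ± 0.20, adjusted p = 0.0196, and log2 -0.99 ± 0.17, adjusted p = 0.0166). The second of the 2 probe sets of MACROD1 ran the other way. FOS passed in 1 of the 6 omissions (adjusted p = 0.0175 to 0.156, not without H23, H358, HCC827, PC9 or the H358 IKKb array), DBP in 1 of the 6 omissions (adjusted p = 0.0409 to 0.154, not without H23, H358, HCC827, PC9 or the H358 IKKb array), RXRA in 1 of the 6 omissions (adjusted p = 0.0165 to 0.207, not without A549, H358, HCC827, PC9 or the H358 IKKb array), and TRIM2 in 3 of the 6 omissions (adjusted p = 0.00517 to 0.0884, not without H23, HCC827 or PC9). MACROD1 passed in 3 of the 6 omissions (adjusted p = 0.0277 to 0.0753, not without H23, H358 or PC9). CRACDL passed in 3 of the 6 omissions (adjusted p = 0.0283 to 0.0668, not without H23, HCC827 or PC9).

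**Figure D3:**
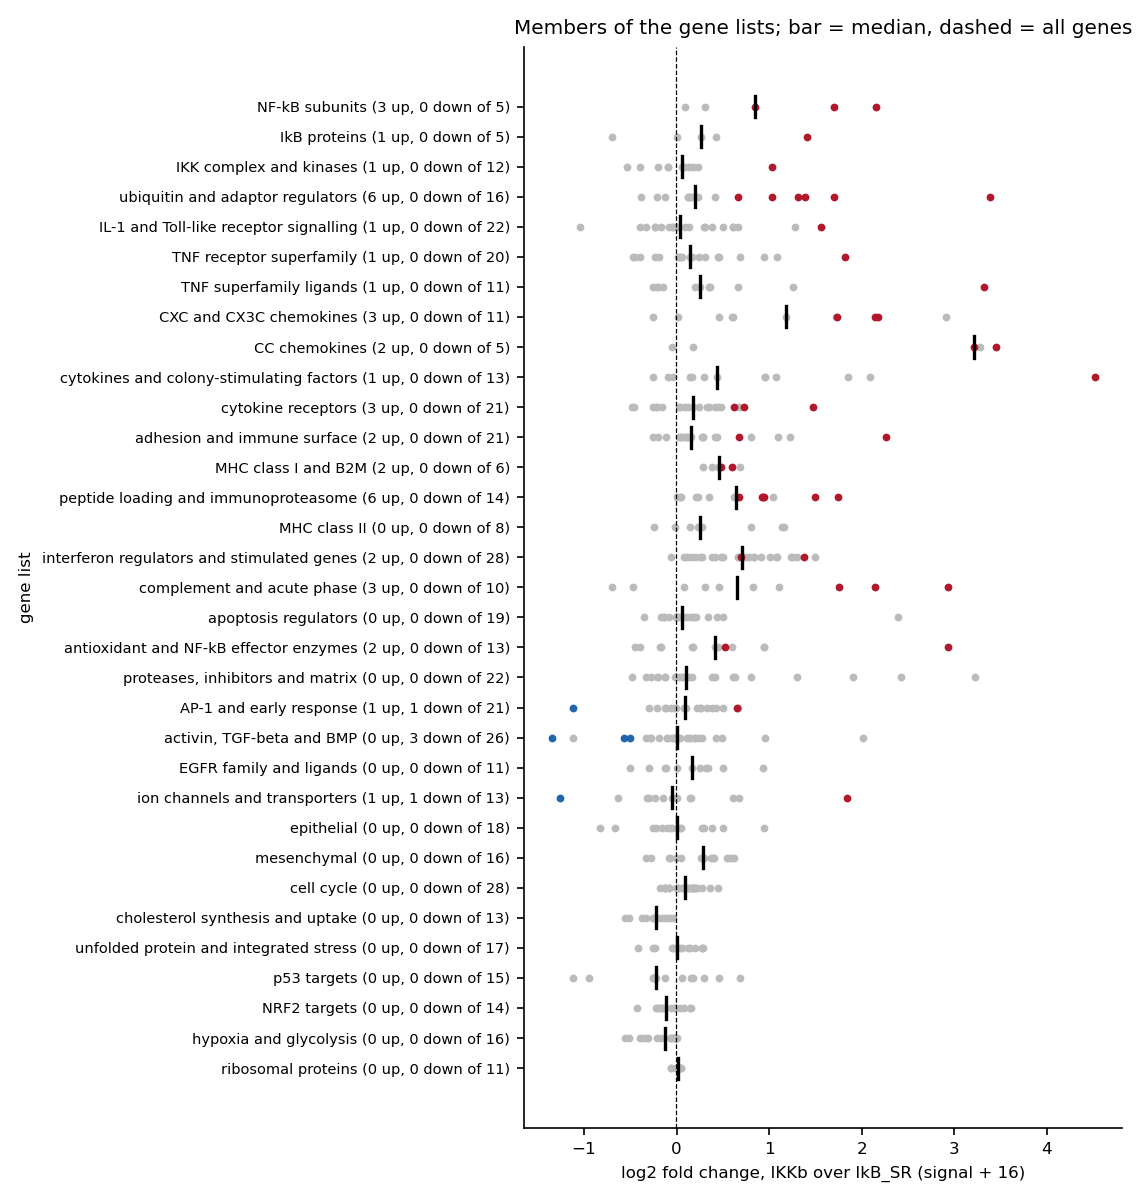
Log2 fold change of IKKb over IkB_SR (x axis) of every tested member of the gene lists (y axis), with members past an adjusted p of 0.05 in red (higher) or blue (lower), a bar at each list's median and a dashed line at the median of all genes, -0.01. CC and CXC chemokines have the highest medians, 3.21 and 1.18, and cholesterol, hypoxia and cell cycle genes lie close to the dashed line with none called.

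Other gene lists held no member past the threshold. None of 28 cell cycle genes passed (median log2 0.09), none of 18 epithelial genes (median 0.00) and none of 16 mesenchymal genes (median 0.29). None of 19 apoptosis regulators passed (median 0.06), although BCL2A1, an anti-apoptotic BCL2 relative, had a log2 of 2.39 with an adjusted p of 0.0669. The 13 cholesterol genes all had a log2 below 0, with a median of -0.22, and 15 of the 16 hypoxia and glycolysis genes did, with a median of -0.12, while none passed. Among all 15212 genes tested, 8075 had a log2 below 0. Without the H358 IKKb array the cholesterol median was -0.09, the hypoxia median -0.15 and the mesenchymal median 0.11. None of 14 NRF2 targets, 15 p53 targets, 17 unfolded protein and stress genes or 11 EGFR family genes passed, with medians of -0.11, -0.22, 0.01 and 0.17. In the omissions CLDN1, a tight junction protein, passed without the H358 IKKb array (log2 1.36, adjusted p = 0.0105), and CDK6, a cell cycle kinase, and HBEGF, an EGFR ligand, passed without A549 (adjusted p = 0.0328 and 0.0189).

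The size of the difference was uneven between lines. With 1 array per vector in a line, a within-line value has no replicate and is a description. In A549, 239 genes were at least 2-fold higher and 235 at least 2-fold lower with IKKb (1.57% and 1.54% of 15212). The counts were 325 and 369 in H23 (2.14% and 2.43%), 386 and 398 in PC9 (2.54% and 2.62%), 616 and 542 in HCC827 (4.05% and 3.56%) and 649 and 1007 in H358 (4.27% and 6.62%). H358 thus had the most genes apart and more lower than higher genes, and its IKKb array is the one that stood apart on the Dap and actin probes, whose part in the result was not tested. Among the 93 higher genes the median log2 difference ran from 0.57 in A549 through 0.81 in H23, 0.97 in H358 and 1.0 in PC9 to 1.05 in HCC827. Among the 49 lower genes it was -0.38 in A549, -0.52 in H23, -0.73 in PC9, -0.76 in HCC827 and -1.08 in H358. A549 held the smallest difference for 28 of the 93 and for 26 of the 49.

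**Figure D4:**
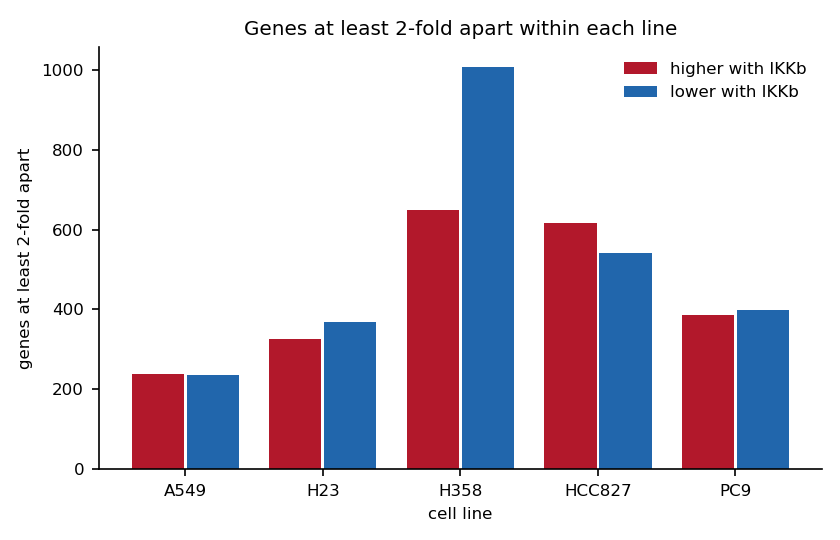
Number of genes (y axis) at least 2-fold higher or lower with IKKb than with IkB_SR within each cell line (x axis), from 1 array per vector. A549 has the fewest, 239 and 235, and H358 the most, 649 and 1007.

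Some called genes differed by nearly the same amount in every line. TMEM14C, a mitochondrial membrane protein, gave 5732, 7240, 6769, 7711 and 5139 with IkB_SR and 8138, 10180, 8402, 9740 and 6510 with IKKb, with log2 differences from 0.31 to 0.50. TMEM14B, its paralogue, MAP7D1, a microtubule-associated protein, TRIM47 and HLA-C were the other higher genes with the smallest spread, at SDs between lines of 0.09 to 0.14 for the 5. Their fold changes were small, 1.32, 1.35, 1.28, 1.55 and 1.39. Among lower genes HLTF, a DNA translocase of replication fork repair, CCNG1, a cyclin, EPB41L1, a membrane skeleton protein, GPC1 and PROM2, a prominin, varied least, at 1.26-fold, 1.26-fold, 1.55-fold, 1.37-fold and 1.46-fold. HLTF gave 3740, 5530, 4176, 3526 and 2746 with IkB_SR and 3091, 4350, 2941, 2883 and 2254 with IKKb, a drop of between log2 -0.27 and -0.50. The widest spread was that of CCL2, LTB and PTX3, with SDs of 2.66, 2.42 and 2.37, and among lower genes that of RNF128, FOS and SCNN1A. Most of the genes of least spread lost their call in the omissions. HLTF, MAP7D1 and CCNG1 passed in none of the 6 (adjusted p = 0.0552 to 0.134, 0.0631 to 0.176 and 0.0671 to 0.187), TMEM14B, HLA-C and PROM2 in 1 each, and TMEM14C, GPC1 and EPB41L1 in 2 each. TRIM47 passed in 5 of the 6 omissions (adjusted p = 0.0171 to 0.0804, not without HCC827).

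**Figure D5:**
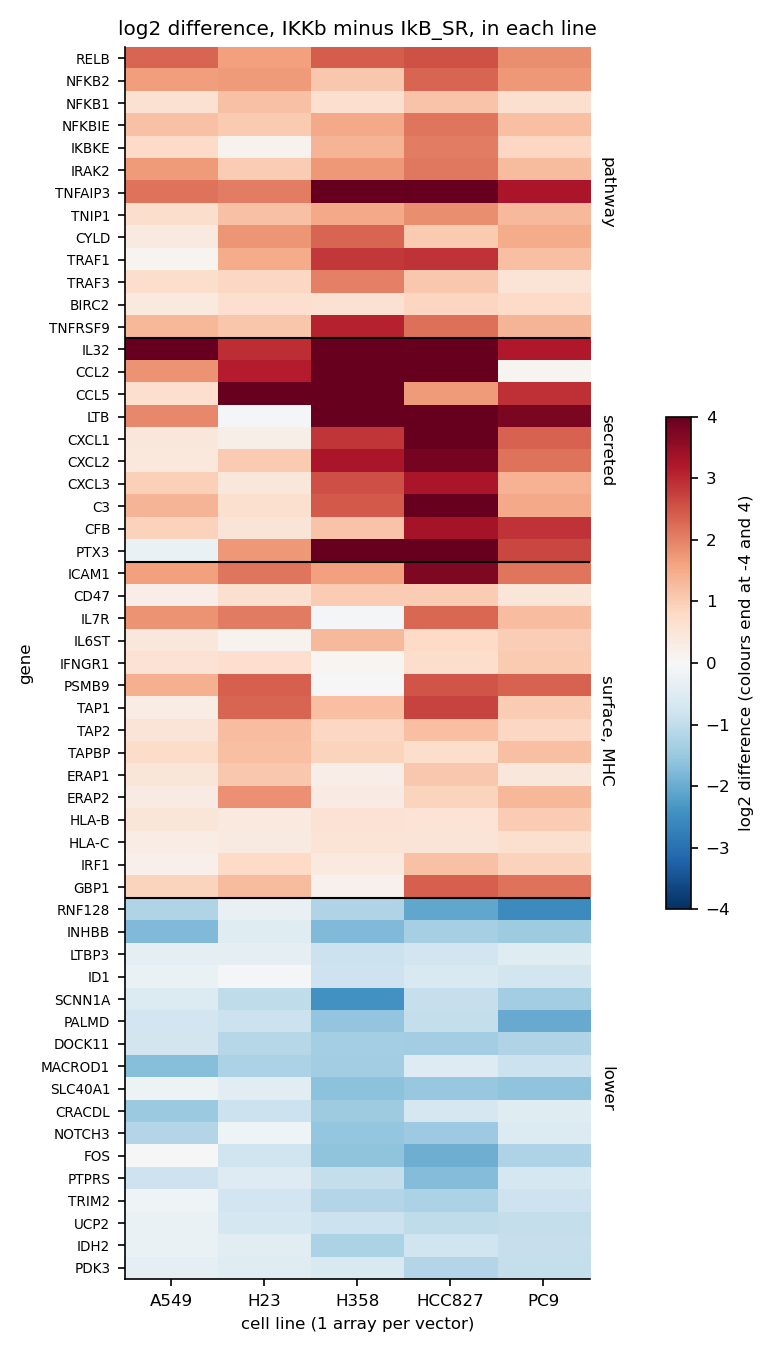
Log2 difference between the IKKb and IkB_SR arrays of each line (x axis) for called genes ordered by role (y axis), with red for higher and blue for lower and the colours ending at -4 and 4. Pathway genes are above 0 in all 5 lines, though TRAF1 is only at 0.1 in A549, as is CCL2 in PC9. Of the other higher genes shown, LTB, PTX3 and IL7R are each below 0 in 1 line.

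Within single lines the most different genes were often outside the 142. In A549 the 3 leading genes upward were IL32, HMGA2 and CXCL8, with HMGA2, a chromatin protein, at 1890 with IKKb against 199.1 with IkB_SR. In H23 they were CCL5, NAV3 and CCL2, and the vitamin D hydroxylase CYP24A1 fell from 3206 to 262.7. In H358 they were CST1, CCL20 and CST2. CST1, a secreted cystatin, was at 15800 with IKKb and 2.16 with IkB_SR, which is at least 289-fold when the 40th percentile of the array is put in place of the lower value. CST2 was at least 123-fold and CCL20 at least 67.2-fold higher there, while PADI3, CEACAM5 and CEL were at least 21.3-fold, 23.6-fold and 12.7-fold lower. In HCC827 CXCL8, CCL2 and the interferon-induced IFI27 were 123-fold, 80.1-fold and 70.5-fold higher, and FGF19, ZNF488 and ALPP at least 11.9-fold, 8.39-fold and 3.5-fold lower. In PC9 the leading genes were CXCL8, OLR1, a receptor for oxidised lipoprotein, and LTB, and downward IGFBP5, CYP26A1 and EVPLL. A549 had CAPS, CCN5 and ACKR3 and H23 had PDK4 and CELF3 among the most reduced. Over the 5 lines CST1, CXCL8, CCL20 and IFI27 did not pass, at adjusted p of 0.183, 0.0907, 0.091 and 0.466. Without the H358 IKKb array CST1 passed with a log2 of 1.58, against 3.23 with it (adjusted p = 0.0221), and CXCL8 with a log2 of 3.46 against 2.91 (adjusted p = 0.0488). FGF19 passed without A549 (log2 -2.43, adjusted p = 0.0354) and CAPS without H23 (log2 -1.8, adjusted p = 0.0422).

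Values with the empty vector are given for some of these genes. The differences of IKKb from MiG and of MiG from IkB_SR share the MiG arrays, so their values are only set side by side. RELB was apart by log2 1.07 between IKKb and MiG and by 1.09 between MiG and IkB_SR. CCL5 was apart by 3.05 and 0.16 and LTB by 2.70 and 0.62. With IkB_SR, CCL5 lay below the 40th percentile of the array in A549, H358 and PC9, and LTB on 2 arrays. Differences of MiG from IkB_SR are understated at such levels, so the 2 sides cannot be weighed for these genes. ITGAM was apart by 0.21 and 1.51, PSMB9 by 0.44 and 1.31 and GPR176, an orphan receptor picked out after its values were seen, by 0.15 and 0.70, with most of it on the IkB_SR side. Among lower genes INHBB had -0.37 and -0.99, DOCK11 -0.66 and -0.49, UCP2 -0.38 and -0.38 and PTPRS -0.68 and -0.26. These values were not tested against each other. GPR176 passed in 2 of the 6 omissions (adjusted p = 0.0392 to 0.214, not without H358, HCC827, PC9 or the H358 IKKb array).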

How the data were processed

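Labelled cRNA from 10 IKKb and IkB_SR cultures, with 5 MiG cultures in the fit, had been hybridised to single-colour Affymetrix arrays. Per the submitters' processing notes, GCOS 1.4 and MAS5 made the values. Each deposited value is the intensity of a probe set, not logged, and their mean without the lowest and highest 2% is 500.1 on every array, a scaling the authors applied and which removes differences in total RNA. Detection calls were not used here. The number of arrays limits the precision.

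Of 54675 probe sets, 41097 name 1 gene, 1801 several and 11777 none. Genes were named through GEO's platform annotation, and of the 19775 genes with a probe set of their own the brightest probe set was used, as log2 of signal plus 16. Genes had to exceed the 40th percentile of the array on 5 or more of 15 arrays, which left 15212. Where all arrays of the dimmer group lay below that percentile, the percentile stands in and the fold is a lower bound. The fit used limma 3.58.1 in R 4.3.3 (lmFit, then eBayes with its trend option, two-sided) for all 15 arrays, blocked by cell line, and p-values were adjusted by Benjamini-Hochberg over all genes with a threshold of 0.05. Cell lines pair the arrays because the same line carried each vector. Deviations of the 2 arrays of a line had a correlation across genes of 0.797 to 0.899. In simulated arrays with 200 changed genes among 15212, 74% of those set to log2 1 and 98% of those set to log2 2 were recovered. There were 9 false calls. Recovery of genes whose difference varies widely between lines, such as CCL2, LTB and PTX3, was not tested. Figures used Python 3.11.15 and matplotlib 3.10.9.

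The groups, gene lists, tests and the rule for named genes were chosen with earlier results of these data known. The rule named per direction the 12 genes of largest fold change and the same sign in all 5 lines, the 12 with the smallest p, list members past the threshold (up to 6 per list outside the core pathway), all NF-kB subunits, inhibitors and main kinases, the 5 least and 3 most variable per direction, and the 3 leading genes per direction in each line. Other genes past the threshold are examples chosen after their values were seen, as was the bound in single lines. Promoters came from RefSeq, GRCh38.p14, and 78 of 93 higher and 43 of 49 lower genes had one. The alternatives were pseudocounts of 1 and 64, quantile normalization, median centring, no filter or one at the 60th percentile, averaged probe sets, eBayes without trend, a robust prior in eBayes, no block, the compared arrays only, and leaving out each line or the H358 IKKb array.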

Additional observations from a re-analysis of the deposited data

Results flagged for a closer look

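In several genes 1 line's difference lay far from those of the other 4 lines by Dixon's test on the 5 differences, a test that marks about 1 in 20 groups by chance. Among the 107 named genes it marked 9. Of these, 5 (CST1, CST2, CEACAM5, CYP24A1 and IFI27) had been named for being among the leading genes of a single line, so that their marks restate that choice and the count says nothing beyond it. At 1 in 20, several of 107 genes would be marked by chance, so the other marks are descriptions only. ICAM1 differed by log2 3.72 in HCC827, where the other lines ranged from 1.63 to 2.15. OPTN was apart by 2.24 and HLA-B by 1.01 in PC9, against 0.90 to 1.23 and 0.41 to 0.57. In H358, CST1 and CST2, neighbouring members of the cystatin family, were apart by 9.77 and 7.15, against 0.92 to 2.57 and -0.26 to 1.12, with both IkB_SR signals below the 40th percentile of the array. CEACAM5, a carcinoembryonic antigen, was at -5.0 in H358, against -0.71 to 0.54, but its IKKb signal there lay below the 40th percentile of the array, so that only the bound of at least 23.6-fold lower holds. CYP24A1 was at -3.53 in H23, against -0.47 to 0.43. IFI27 was at 6.14 in HCC827, against -0.46 to 0.78. REL was at 0.50 in H23, against -0.08 to 0.04.

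The same test on array quality marked the GAPDH 3′ to 5′ ratio of the H358 IKKb array, 1.09 against 0.964 to 0.976 on the other IKKb arrays. It also marked the Dap spike-in signal of the A549 IKKb array, 174.4 against 4921 to 6765, and the other A549 arrays had like values of 200.5 and 211.2.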

How the results depend on the processing

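The direction of all 142 called genes was the same in every alternative in which they were tested. Changing the filter, trend, prior or block, or using the compared arrays only, leaves the fold changes as they are. The sign could not change in those alternatives. The number past the threshold depended on several choices. It was 119 with a pseudocount of 1 and 132 with 64, against 142. It fell to 86 (57 higher, 29 lower) without a filter, 45 (32 and 13) with the mean of probe sets, 21 (17 and 4) without an intensity trend and 15 (13 and 2) with the compared arrays only. With no replicate block, that is without pairing by cell line, limma called 0 (0 higher, 0 lower), with 87 genes at an unadjusted p under 0.05. That is fewer than such a cut would pass by chance among all genes tested. Median centring gave 106 higher and 31 lower. Leaving out 1 line or the H358 IKKb array gave 24 to 129 genes, 19 to 77 higher and 5 to 52 lower. Some genes that did not pass changed sign. IKBKB was at 0.28, HMGA2 at -0.11 and REL at -0.05 with the mean of probe sets. NFKBID was at 0.02 with quantile normalization and 0.04 with median centring. Over the same omissions CEL ran from -1.47 to 0.05, CEACAM5 from -1.32 to 0.06, HMGA2 from -0.13 to 0.8 and CCN5 from -0.9 to 0.17. REL ran from -0.01 to 0.14, ALPP from -0.94 to 0.2, ACKR3 from -1.37 to 0.53 and NFKBID from -0.19 to 0.13. The cause of these moves was not tested, beyond the fewer arrays in the omissions. Signals near background limit the dimmest genes, of which IL32 has only a bound.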

Other observations

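Probe sets of 1 gene did not always agree. Of the called genes with several kept probe sets, 44 of 50 higher and 23 of 30 lower genes had the same sign in all of them. The exceptions were CYLD (6 of 7 with the gene's sign), EML4 (5 of 7), MSI2 (8 of 9), ERAP1, ANTXR2 and TRIM8 (3 of 4), EPB41L1, IL27RA, LTBP3 and MYBL1 (2 of 3), and ADSS1, MACROD1 and SNN (1 of 2).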
